A study of Mus musculus with 28 samples.

Results

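The 40 genes of mitosis and of the passage from G2 into mitosis were followed across mouse livers that differ in genotype and in the dose of a protective drug. The genes were taken from a list of symbols and matched to array probes through the accession given for each probe. Of the 40, 39 had a probe, and 38 passed the filter, being well above background on each of the 4 arrays in some group, and were tested among 20302 features in all. Prc1, which bundles the midzone microtubules, had no probe under its symbol. Ttk, a spindle checkpoint kinase, had a probe that did not pass.

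Cells enter mitosis when CDK1, bound to cyclin A2 or a B-type cyclin, is freed of its inhibitory phosphates by CDC25 phosphatases. Plk1 and the Aurora kinases then build the spindle, the kinetochore proteins and checkpoint kinases hold anaphase back until chromosomes are attached, and the anaphase-promoting complex with Cdc20 destroys cyclin B and securin. Adult liver is nearly quiescent, and its hepatocytes re-enter the cycle after injury or loss of tissue. Downstream of p53, p21 (encoded by Cdkn1a) inhibits cyclin-dependent kinases, and through the DREAM complex it helps to keep many of these genes repressed at CHR elements in their promoters, next to which CCAAT boxes are bound by the activator NF-Y.

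All 28 livers came from mice without Fah, the last enzyme of tyrosine breakdown, which live on nitisinone (NTBC), a blocker of the earlier enzyme Hpd. Each of 7 groups had 4 arrays. With no NTBC there were Fah-/- livers that also lacked p21, Fah-/- livers that also lacked p53, and livers lacking Fah alone. On reduced and on full NTBC there were Fah-/- livers lacking p53 and livers lacking Fah alone. These genotypes are called p21-/-, p53-/- and Fah-/- livers below, so that the absence of Fah is shared by every group and each p53-/- or p21-/- liver is compared with Fah-/- livers on the same dose. Full NTBC meant 7.5 mg/L in the water they drank. The reduced dose is 25% of it in the sample labels but 2.5% for 3 months in the text on the series and in the treatment notes, and how long the others went without it was not found in the labels. No group has Fah, and p21-/- livers were measured with no NTBC only.

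RNA of whole liver was measured on single-colour arrays, so that fewer cycling cells and less of a transcript per cell cannot be told apart. The 75th percentile of the processed signal lay between 252 and 578 over the arrays, and 54.8% to 68.5% of probes were well above background. The 3 scan runs held 1 dose each, which leaves dose and scan run inseparable. On full and reduced NTBC each genotype filled its own slide, and genotype and slide cannot be told apart at those doses, while the 12 arrays with no NTBC lay on 3 slides with 2 groups on each. Sex transcripts (Ddx3y of males and Xist of females) showed that the 4 p53-/- livers with no NTBC and replicates 1 and 2 of the p21-/- livers were female and all others male. In Fah-/- replicate 2 with no NTBC 1 Xist probe was well above background beside Ddx3y, and it was read as male. The Fah probe was well above background on all 28 arrays, so it does not check the Fah label. The Cdkn1a probe gave signal in the p21-/- livers (log2 level 3.24 ± 0.22 there, against 4.28 ± 0.10 in Fah-/- livers with no NTBC, SD) and so does not check that label. Of the Trp53 probes, the dimmer one lay at log2 levels of -2.71, -2.22 and -2.75 in p53-/- livers with no, reduced and full NTBC, against -0.56, -0.27 and -1.37 in Fah-/- livers, while the brighter one was not lower in p53-/- livers on reduced NTBC (1.18 against 0.92). Hepatocyte markers were well above background in all groups (9 of 9 measured). Nothing in the labels says whether the arrays of a group are of different animals, and the p-values cover the spread among these samples alone.

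The promoters of 5 members that the results turn on are shown because the module is known for a shared promoter architecture. RefSeq windows of build GRCm38.p6, from 250 bases before to 50 after the annotated start, were at hand for 34 of the 40 members, and none for Kif20a among the others. In the sequences, all 5′ to 3′ along the gene, capitals mark the CHR element TTTGAA, the CCAAT box (ATTGG where it lies on the other strand) and the E2F site TTTCGCGC.
Cdc20, chr4:118437294-118437593, minus strand: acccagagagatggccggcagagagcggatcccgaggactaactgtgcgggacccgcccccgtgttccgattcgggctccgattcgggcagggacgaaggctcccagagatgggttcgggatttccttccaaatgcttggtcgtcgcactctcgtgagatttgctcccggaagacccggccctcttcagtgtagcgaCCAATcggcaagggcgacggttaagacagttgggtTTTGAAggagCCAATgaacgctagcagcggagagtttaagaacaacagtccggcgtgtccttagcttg
Plk1, chr7:122159185-122159484, plus strand: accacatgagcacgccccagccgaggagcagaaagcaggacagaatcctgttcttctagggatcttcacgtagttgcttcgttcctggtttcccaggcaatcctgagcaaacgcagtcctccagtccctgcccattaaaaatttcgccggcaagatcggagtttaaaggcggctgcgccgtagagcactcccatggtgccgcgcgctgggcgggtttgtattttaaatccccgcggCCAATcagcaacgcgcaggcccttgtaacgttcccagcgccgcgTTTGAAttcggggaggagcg
Ccnb2, chr9:70421505-70421804, minus strand: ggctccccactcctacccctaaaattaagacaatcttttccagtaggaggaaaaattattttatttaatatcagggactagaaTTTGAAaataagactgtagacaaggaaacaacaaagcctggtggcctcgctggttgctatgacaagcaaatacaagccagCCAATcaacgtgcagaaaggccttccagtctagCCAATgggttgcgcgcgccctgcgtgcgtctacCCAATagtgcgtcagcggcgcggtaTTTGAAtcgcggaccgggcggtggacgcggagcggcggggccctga
Cdk1, chr10:69352863-69353162, minus strand: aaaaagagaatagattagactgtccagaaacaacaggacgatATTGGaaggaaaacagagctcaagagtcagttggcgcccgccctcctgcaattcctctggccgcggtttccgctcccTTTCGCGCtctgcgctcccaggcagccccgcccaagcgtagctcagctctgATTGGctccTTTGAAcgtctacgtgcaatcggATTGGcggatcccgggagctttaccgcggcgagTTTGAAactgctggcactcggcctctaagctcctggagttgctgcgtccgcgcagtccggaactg
Ccnb1, chr13:100786437-100786736, minus strand: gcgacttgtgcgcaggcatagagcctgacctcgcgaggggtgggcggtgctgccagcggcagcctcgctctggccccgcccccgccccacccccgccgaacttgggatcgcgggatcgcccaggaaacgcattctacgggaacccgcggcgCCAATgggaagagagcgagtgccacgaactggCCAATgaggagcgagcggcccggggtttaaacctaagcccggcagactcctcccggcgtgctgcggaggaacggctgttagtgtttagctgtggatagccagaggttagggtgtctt

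Cdc20 has TTTGAA 18 bases before its start with CCAAT boxes at 53 and 8 bases before it. Plk1 has TTTGAA 31 bases after the start and a CCAAT box 14 before. Ccnb2 holds 3 CCAAT boxes, at 87, 54 and 21 bases before the start, and TTTGAA at 167 before and 5 after. In Cdk1, TTTGAA lies 71 and 15 bases before the start, with the E2F letters 131 before. Ccnb1 holds CCAAT boxes at 99 and 67 bases before the start and no TTTGAA in this window. Searched on both strands, TTTGAA was in the windows of 23 of 34 members (67.6%), against 20.2% of all 27025 genes with a window. The variant TTCGAA was in 4 (11.8%, against 1.8% of all genes) and CCAAT in 25 (73.5%, against 41.1%). A CHR element of either spelling together with a CCAAT box was in 22 of 34 members (64.7%), against 8.61% of all genes. The E2F letters TTTCGCGC were in 1 member (2.94%, against 0.374%) and TTTGGCGC in 0, against 0.585% of all genes. Such matches describe letters in a window and show no binding.

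Levels are given as a percent of the array's 75th percentile. Differences are log2 differences ± SE from 1 limma fit over all 28 arrays with 4 arrays a group, and a gene is said to have risen or fallen, or to be called, at a p adjusted over all 20302 features under 0.05. In Fah-/- livers on full NTBC the module was low: 19 of 38 members were well above background on all 4 arrays and 10 on none. All 38 were well above background on all 4 arrays in p21-/- livers with no NTBC, 34 in p53-/- livers with no and 34 with reduced NTBC, and 26 in p53-/- livers on full NTBC. The same held in Fah-/- livers for 35 members with no NTBC and for 20 on reduced NTBC. Over the 38 members, the median log2 level per array was highest in p53-/- livers with no NTBC (replicate 2, 0.50) and lowest in Fah-/- livers on reduced NTBC (replicate 3, -3.99).

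**Figure D1:**
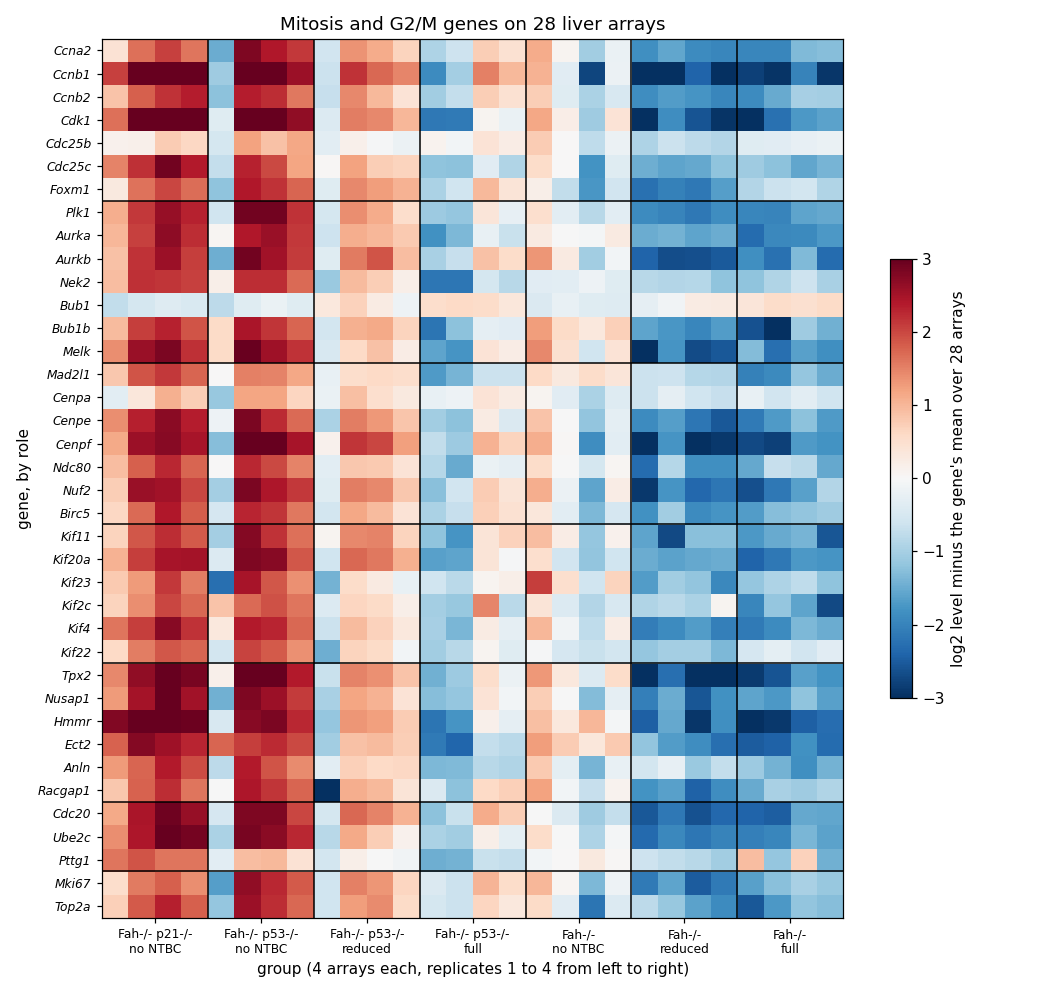
Log2 level of each of 38 genes (down the page, by role) on each of 28 arrays (across, by group), minus the gene's mean over the arrays. Most genes are high together in p21-/- and p53-/- livers with no NTBC and low together in Fah-/- livers on full or reduced NTBC, 1 array of p53-/- livers with no NTBC (replicate 1) lies below the gene's mean for 28 of the 38 genes, and Bub1 runs the other way.

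The members moved together on single arrays, which made the groups uneven. In p53-/- livers with no NTBC, replicate 1 was the lowest of the 4 for 38 of 38 members, with a median log2 level of -2.10 against -0.12 to 0.50 on the other arrays. Replicate 1 was also the lowest of p53-/- livers on reduced NTBC for 37 members and of p21-/- livers for 37. Each of these arrays also had the largest SD over features of an array's deviation in its group. It was 0.60 for replicate 1 of p53-/- livers with no NTBC, against 0.28 to 0.33 on the others. For replicate 1 of p21-/- livers it was 0.50, against 0.33 to 0.42. For replicate 1 of p53-/- livers on reduced NTBC it was 0.33, against 0.22 to 0.28. That is below the 0.36 to 0.37 of the 4 arrays of p53-/- livers on full NTBC. In p53-/- livers on full NTBC the arrays were split, with median levels of -3.34 and -3.11 on replicates 1 and 2 and of -1.52 and -1.95 on replicates 3 and 4. Among Fah-/- livers with no NTBC, replicate 1 was the highest for 34 members and replicate 3 the lowest for 33. The median SD between arrays was 1.41 in log2 for the members, against 0.25 for all features, in p53-/- livers with no NTBC. It was 0.61 against 0.25 in p21-/- livers, 0.86 against 0.18 in p53-/- livers on reduced NTBC and 0.82 against 0.23 in those on full NTBC. Among Fah-/- livers it was 0.71 against 0.23 with no NTBC, 0.31 against 0.20 on reduced and 0.36 against 0.16 on full NTBC.

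**Figure D2:**
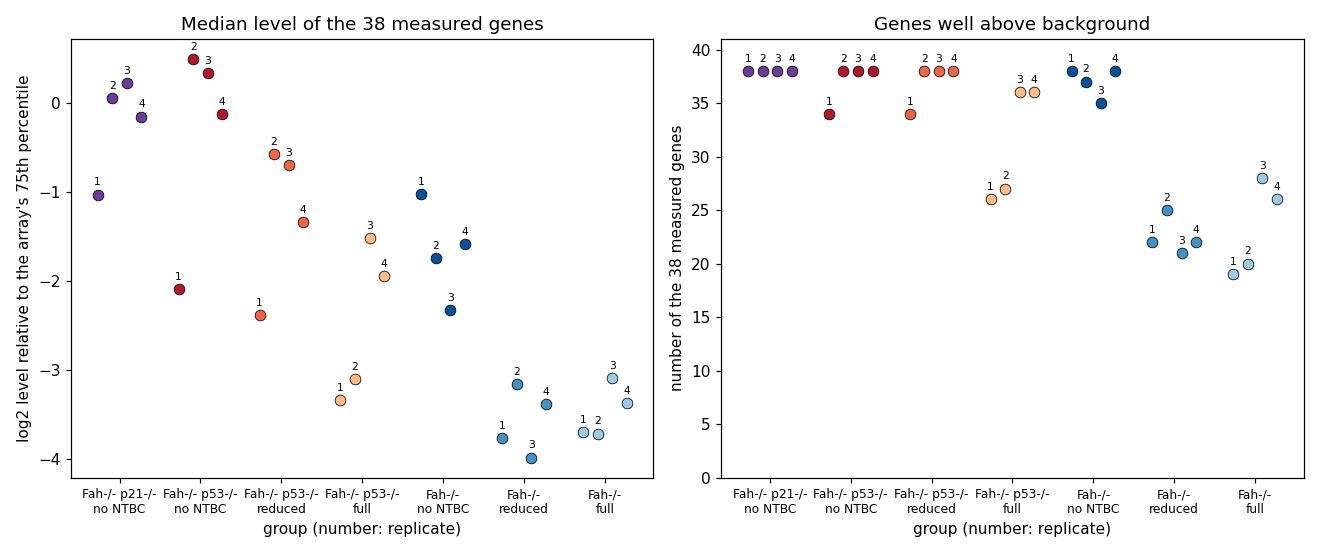
Median log2 level of the 38 genes on each array, relative to the array's 75th percentile, and the number of the 38 well above background on it, by group. The 4 Fah-/- livers on full NTBC lie between -3.72 and -3.09 and the p53-/- livers on reduced NTBC between -2.38 and -0.57, and replicate 1 of p53-/- livers with no NTBC lies at -2.10.

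On reduced NTBC, loss of p53 went with higher expression across the module. Cdc20, the activator of the anaphase-promoting complex, was 10.2-fold higher in p53-/- than in Fah-/- livers, Cdk1, the kinase that drives mitotic entry, 11.5-fold (well above background on 1 of 4 Fah-/- arrays) and the proliferation marker Mki67 6.97-fold. Of the 39 members with a probe, 29 were called higher and 0 lower when dim probes were kept in the test, a share to read against 20.6% of all features called then. With the filter, 28 of 38 rose and 0 fell, where 15.6% of all features were called 9.84% higher and 5.80% lower, and all 38 differences were positive. Of the 19 members well above background on all 28 arrays 13 rose in a fit to such features alone, in which 13.8% were called. All 28 were called with no overlap between the groups, 73.7% of the members tested, against 13.2% of all features. The median difference of the 38 was 2.34, against 0.04 for all features.

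Among cyclins and the genes of mitotic entry 6 of 7 rose. Ccnb2, a B-type cyclin, was at 94.9, 421, 304 and 206 in p53-/- livers, against 42.4, 48.5, 45.5 and 39.5 in Fah-/- livers. Ccna2, cyclin A2, was at 32.1, 121, 104 and 75.7 in p53-/- livers, against 13.3, 16.1, 12.9 and 12.3 in Fah-/- livers. In both genes p53-/- replicate 1 was the lowest of its group and still above every Fah-/- array, and the difference was 2.35 ± 0.60 (adjusted p = 0.0095) for Ccnb2 and 2.45 ± 0.66 (adjusted p = 0.0133) for Ccna2. Cdk1 was at 20.8, 79.9, 74.9 and 55.3 in p53-/- livers, against 3.18, 7.60, 4.60 and 3.55 in Fah-/- livers, a difference of 3.52 ± 0.74 (adjusted p = 0.0023). Ccnb1, the main mitotic B-type cyclin, was at 5.26, 36.9, 27.1 and 22.6 in p53-/- livers, against 0.903, 0.833, 1.54 and 0.933 in Fah-/- livers. No Fah-/- array was well above background for Ccnb1, so that it was at least 4.25-fold higher, measured against the lowest signal counted as above background (adjusted p = 0.0024). Foxm1, a transcription factor that activates G2/M genes, was at 22.0, 76.8, 67.0 and 57.9 in p53-/- livers, against 5.92, 6.91, 6.36 and 9.01 in Fah-/- livers. The Foxm1 groups were apart by 2.86 ± 0.60 (adjusted p = 0.00229), with p53-/- replicate 1 again nearest to Fah-/- livers. Cdc25c, a phosphatase that activates CDK1, rose as well (adjusted p = 0.00445), with no Fah-/- array above background. Its relative Cdc25b, at 34.3, 47.4, 41.7 and 37.8 in p53-/- and 22.5, 27.5, 24.7 and 23.3 in Fah-/- livers, was not called although the arrays did not overlap (0.71 ± 0.29, adjusted p = 0.0983).

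Of 7 mitotic kinases tested 5 rose. Plk1 was at 71.1, 268, 222 and 146 in p53-/- livers, against 27.6, 25.7, 23.2 and 27.9 in Fah-/- livers. Aurka, needed for centrosome maturation, was at 98.0, 322, 302 and 261 in p53-/- livers, against 53.9, 56.6, 49.8 and 53.2 in Fah-/- livers. Both were separated by more than the spread between arrays, by 2.60 ± 0.56 (adjusted p = 0.00273) for Plk1 and 2.07 ± 0.45 (adjusted p = 0.00306) for Aurka. Aurkb, the kinase of the chromosomal passenger complex, was at 5.25, 19.8, 25.1 and 12.8 in p53-/- livers, against 1.27, 1.07, 1.08 and 1.18 in Fah-/- livers, at least 3.096-fold higher (adjusted p = 0.00135). Bub1b, the checkpoint protein BubR1, was at 8.53, 26.4, 27.7 and 20.1 in p53-/- livers, against 4.17, 3.77, 3.24 and 3.96 in Fah-/- livers, at least 4.31-fold higher (adjusted p = 0.00223). For these a Fah-/- level is a bound, since no array was well above background. Melk was likewise at least 3.21-fold higher (adjusted p = 0.00078). Nek2, which splits the centrosomes, differed by 1.13 ± 0.44 (adjusted p = 0.0867) and Bub1 by 0.24 ± 0.15 (adjusted p = 0.294), with overlapping arrays and no call.

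At the kinetochore 6 of 7 members rose. Birc5, the survivin subunit of the passenger complex, was at 236, 768, 661 and 457 in p53-/- livers, against 97.8, 168, 93.4 and 100.2 in Fah-/- livers, a difference of 2.12 ± 0.52 (adjusted p = 0.0074). Cenpe, a kinetochore motor, differed by 2.74 ± 0.55 (adjusted p = 0.0016) and the checkpoint protein Mad2l1 by 1.10 ± 0.31 (adjusted p = 0.0169). Cenpf, not above background in any Fah-/- liver on this dose, was at least 9.25-fold higher, and the Ndc80 complex members Nuf2 and Ndc80 at least 7.17-fold and 2.27-fold. Cenpa, the histone variant of centromeres, was not called (0.92 ± 0.37, adjusted p = 0.0985), although its arrays did not overlap.

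Of 6 kinesins 3 were called. Kif20a, a motor of cytokinesis, was at 47.7, 235, 216 and 149.8 in p53-/- livers, against 25.7, 23.4, 24.8 and 25.6 in Fah-/- livers, a difference of 2.47 ± 0.60 (adjusted p = 0.00651). Kif4, a chromokinesin, differed by 2.25 ± 0.43 (adjusted p = 0.00102), and Kif11, the motor that separates spindle poles, was at least 2.46-fold higher. Kif22 (1.07 ± 0.45, adjusted p = 0.109), Kif23 and Kif2c (0.89 ± 0.46, adjusted p = 0.198) were not called. Among spindle and cytokinesis genes 4 of 6 rose. Ect2, the exchange factor that activates RhoA at the cleavage plane, was at 31.6, 120.3, 127 and 109.7 in p53-/- livers, against 28.6, 20.3, 18.1 and 13.5 in Fah-/- livers, a difference of 2.13 ± 0.39 (adjusted p = 0.000694). Tpx2, an activator of Aurora A, above background on 1 of 4 Fah-/- arrays, differed by 3.93 ± 0.60 (adjusted p = 0.000138). Hmmr, above background on 3 of 4, differed by 2.73 ± 0.62 (adjusted p = 0.004) and Nusap1 by 2.39 ± 0.67 (adjusted p = 0.0176). Anln, of the contractile ring, and Racgap1 were not called (adjusted p = 0.136 and 0.0855).

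Of the anaphase genes, Cdc20 and Ube2c rose and Pttg1 did not. Cdc20 was at 127, 604, 516 and 381 in p53-/- livers, against 31.6, 41.3, 29.9 and 36.1 in Fah-/- livers, and even the lowest p53-/- array lay above the highest Fah-/- array (3.35 ± 0.61, adjusted p = 0.000731). Ube2c, the ubiquitin-conjugating enzyme of that complex, differed by 2.41 ± 0.59 (adjusted p = 0.00733), and Pttg1, which encodes securin, by 0.68 ± 0.38 (adjusted p = 0.239) without a call. Mki67 was at 80.8, 348, 306 and 192 in p53-/- livers, against 28.1, 40.9, 21.8 and 28 in Fah-/- livers (2.80 ± 0.67, adjusted p = 0.00597). Top2a, the topoisomerase that untangles chromosomes, was at 9.06, 32.4, 36.4 and 20.1 in p53-/- livers, against 7.95, 6.22, 4.45 and 3.68 in Fah-/- livers, 2 of which were above background (2.01 ± 0.65, adjusted p = 0.0364). Leaving out single arrays moved the count of calls between 25 and 31, and 25 of the 28 were called in each of those fits. With normexp background correction 8 of the 38 were called, and 18 in the values the authors deposited.

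**Figure D3:**
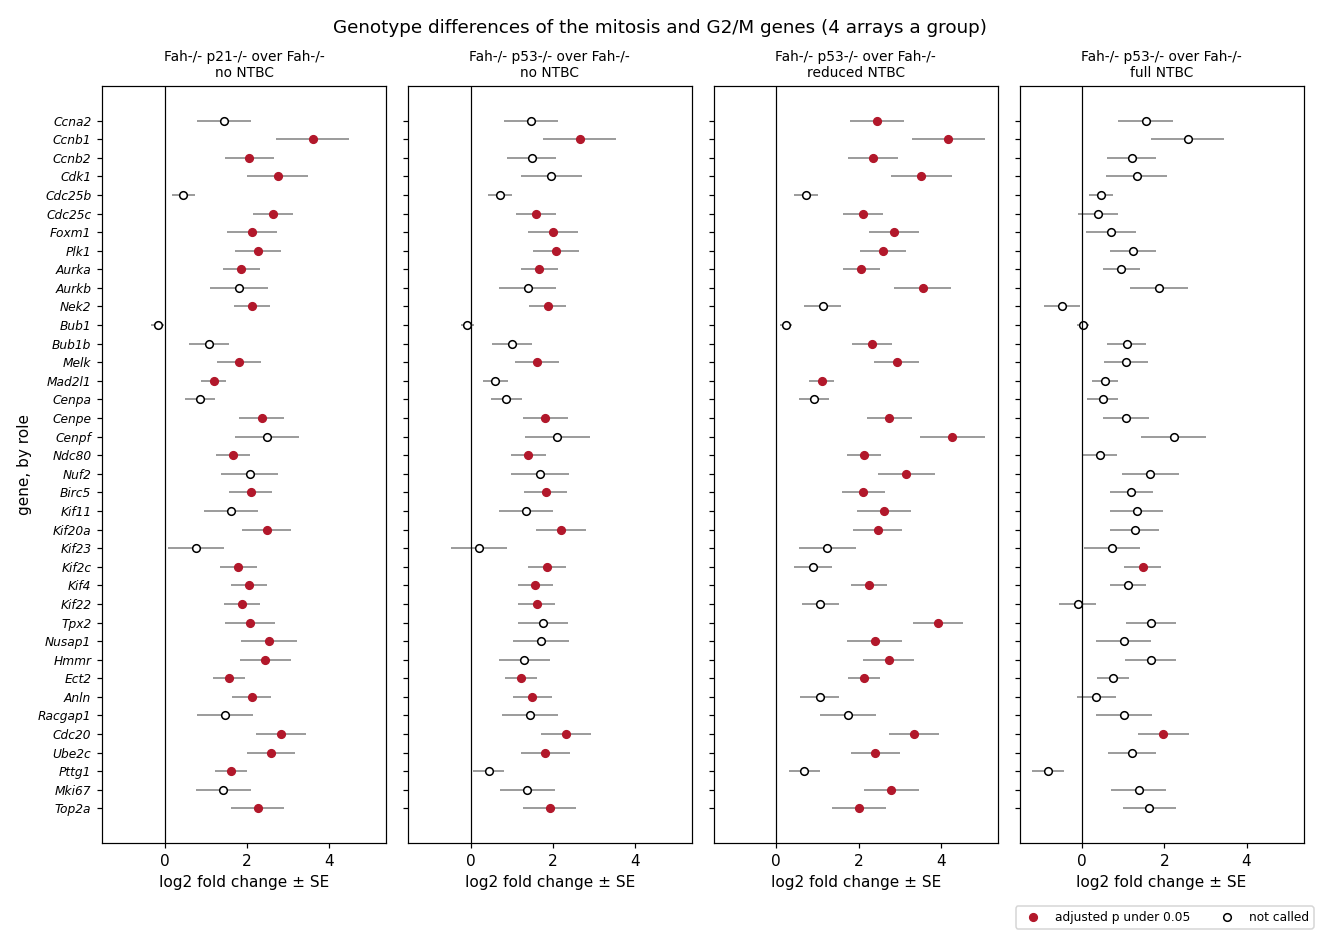
Log2 difference ± SE of each of 38 genes between p21-/- or p53-/- and Fah-/- livers, in 4 panels by mutant and dose. Filled red points have an adjusted p under 0.05 (26 for p21 loss with no NTBC, and for p53 loss 19 with no, 28 with reduced and 2 with full NTBC), and almost all points lie to the right of 0.

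With no NTBC, livers lacking p21 expressed most of the module more highly than Fah-/- livers. Cdc20 was 7.14-fold higher, the CDK1-activating phosphatase Cdc25c 6.25-fold (above background on 3 of 4 Fah-/- arrays) and Pttg1 3.05-fold. Of the 39 members with a probe, 23 were called higher and 0 lower with dim probes kept (3.64% of all features called). With the filter 26 of 38 rose and 0 fell, where 7.53% of all features were called and 3.94% called higher and 3.59% lower. Of the 19 members above background on every array 14 rose, against 8.06% of the features so measured. Of the 26 calls 25, all but Melk, were without overlap between the groups, 65.8% of the members tested, against 5.83% of all features. The median difference was 2.06, against 0.02 for all features.

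Between the p21-/- and Fah-/- livers, Ccnb2 was at 280.3, 537, 697 and 787 in p21-/- livers, against 255, 119.9, 80.3 and 111 in Fah-/- livers (2.06 ± 0.60, adjusted p = 0.0371). Ccnb1 was at 33.6, 67.0, 102 and 89.7 in p21-/- livers, against 16.9, 6.43, 1.22 and 7.21 in Fah-/- livers, 3 of which were above background (3.60 ± 0.88, adjusted p = 0.0146). In both, Fah-/- replicate 1 was the highest of its group and p21-/- replicate 1 the lowest of its own. Cdk1 was at 86.4, 240.0, 367 and 254 in p21-/- livers, against 61.5, 31.6, 13.2 and 36.9 in Fah-/- livers (2.75 ± 0.74, adjusted p = 0.0247). Foxm1 was at 34.6, 87.8, 114 and 89.5 in p21-/- livers, against 31.9, 16.8, 8.45 and 18.8 in Fah-/- livers (2.13 ± 0.60, adjusted p = 0.0324). For Foxm1 the lowest p21-/- array lay just above the highest Fah-/- array. Ccna2, at 64.3, 149, 197 and 144 in p21-/- and 102, 49.96, 23.2 and 41.6 in Fah-/- livers, overlapped and was not called (1.45 ± 0.66, adjusted p = 0.188). Cdc25b, at 46.8, 47.8, 72.2 and 65.4 in p21-/- and 73.1, 42.9, 25.3 and 37.7 in Fah-/- livers, was not called either (adjusted p = 0.364).

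Of the kinases, Plk1 was at 216, 442, 623 and 505 in p21-/- livers, against 144, 82.3, 57.3 and 82.0 in Fah-/- livers (2.27 ± 0.56, adjusted p = 0.0149). Aurka was at 300.3, 625, 959.9 and 701 in p21-/- livers, against 181, 149, 145 and 181 in Fah-/- livers (1.87 ± 0.45, adjusted p = 0.0131). Both were without overlap between the groups, as was Nek2, which had the smallest p of the kinases here (2.12 ± 0.44, adjusted p = 0.00478). Aurkb, at 12.3, 30.3, 39.8 and 28.6 in p21-/- and 17.0, 8.10, 3.27 and 6.40 in Fah-/- livers, overlapped and was not called (1.80 ± 0.70, adjusted p = 0.119). Bub1b, at 24.3, 52.8, 61.8 and 46.1 in p21-/- and 29.9, 18.6, 15.8 and 20.8 in Fah-/- livers, was not called either (1.08 ± 0.49, adjusted p = 0.18). At the kinetochore Birc5 was at 529, 1123, 1833 and 1207 in p21-/- livers, against 439, 275, 134 and 242 in Fah-/- livers (2.10 ± 0.52, adjusted p = 0.0159). Cenpe (2.36 ± 0.55, adjusted p = 0.0106), Ndc80 (1.66 ± 0.42, adjusted p = 0.0176) and Mad2l1 (1.19 ± 0.31, adjusted p = 0.0197) rose too, so that 4 of 7 kinetochore genes were called.

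Of the kinesins 4 of 6 rose, among them Kif20a, at 148, 304, 398 and 401 in p21-/- livers, against 102, 48.3, 31.7 and 47.1 in Fah-/- livers (2.48 ± 0.60, adjusted p = 0.013). Ect2 was at 223, 444, 379 and 317 in p21-/- livers, against 155, 111, 82.5 and 112 in Fah-/- livers (1.55 ± 0.39, adjusted p = 0.0167). Among the spindle and cytokinesis genes 5 of 6 rose, Racgap1 excepted. All 3 anaphase genes rose, Cdc20 being at 403, 1004, 1395 and 1125 in p21-/- livers, against 184, 136, 87.9 and 112 in Fah-/- livers (2.84 ± 0.61, adjusted p = 0.00653). Pttg1 was at 3575, 4341, 3557 and 3582 in p21-/- livers, against 1116, 1183, 1445 and 1193 in Fah-/- livers (1.61 ± 0.38, adjusted p = 0.0121), a wide gap on every array. Mki67, at 176, 357, 427 and 322 in p21-/- and 243, 128, 48.3 and 110.3 in Fah-/- livers, overlapped and was not called (1.42 ± 0.67, adjusted p = 0.201). Top2a, at 22.5, 49.0, 69.1 and 47.4 in p21-/- and 20.4, 10.8, 2.98 and 10.3 in Fah-/- livers, rose (2.27 ± 0.65, adjusted p = 0.0349).

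On the 1 slide that holds both groups, all of males, both p21-/- arrays lay above both Fah-/- arrays for 37 of 38 members, against 21.9% of all features, with a median difference of 2.66 and 8 calls (1.01% of all features called). With slide as a fixed block, 30 were called in a fit to all 28 arrays and 2, Ect2 and Kif2c, in a fit to the 12 arrays with no NTBC. With the male p21-/- arrays alone 17 were called, without p21-/- replicate 3, a male, 15, and with normexp background correction 16. The calls for p53 loss on reduced NTBC and for p21 loss with no NTBC share no array: 21 members were called higher in both, 75% of the 28 for p53 loss and 80.8% of the 26 for p21 loss. They are 55.3% of the 38 tested, where 167 of all features, 0.823%, were called higher in both (8.36% of those called higher with p53 loss and 20.9% of those with p21 loss). Cdc25b, Bub1, Cenpa, Kif23 and Racgap1 were called in neither on the probes that stood for them, which for Bub1, Kif23 and Racgap1 depended on the probe, as given with the further probes.

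With no NTBC, p53-/- livers also had higher mitotic expression than Fah-/- livers on 3 of their 4 arrays. The other array lay among the Fah-/- livers for many members and below all of them for some. All 4 of these p53-/- livers were female and all 4 Fah-/- livers male by sex transcripts, so that p53 loss and sex cannot be told apart here. Plk1 differed by 2.07 ± 0.56 (adjusted p = 0.0156), Cdc20 by 2.33 ± 0.61 (adjusted p = 0.0137) and Foxm1 by 2.004 ± 0.60 (adjusted p = 0.0284), each with overlapping arrays. Of the 39 members with a probe, 14 were called higher and 0 lower with dim probes kept (7.63% of all features). With the filter 19 of 38 rose and 0 fell, where 14.2% of all features were called and 7.65% called higher and 6.60% lower. Of the 19 members above background on every array 11 rose, against 16.0% of the features so measured. Nek2, Kif2c and Ect2 were called with no overlap between the groups, 3 of 38 or 7.89% of the members, a share below the 10.7% of all features. The median difference was 1.60, against 0.01 for all features.

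The overlap lay in replicate 1. Mki67 was at 38.6, 772, 583 and 439.8 in p53-/- livers, against 243, 128, 48.3 and 110.3 in Fah-/- livers, and was not called (1.38 ± 0.67, adjusted p = 0.174). Ccna2 was at 16.9, 329.7, 252 and 208 in p53-/- livers, against the Fah-/- levels given above, and was not called (1.47 ± 0.66, adjusted p = 0.14). Ccnb1, at 3.92, 86.8, 91.5 and 48.6 in p53-/- livers, was called (2.66 ± 0.88, adjusted p = 0.0459). For Mki67 and Ccna2 replicate 1 lay below every Fah-/- array, and for Ccnb1 it lay within their range. In each of these genes the other 3 p53-/- arrays lay above the highest Fah-/- array, replicate 1 of that group. Cdk1, at 21.2, 261, 227 and 173 in p53-/- livers, missed the call (1.96 ± 0.74, adjusted p = 0.0773). Ccnb2, at 65.1, 792, 719.6 and 458 in p53-/- livers, missed it too (1.49 ± 0.60, adjusted p = 0.0988). Foxm1 was at 12.2, 150.0, 127 and 94.7 in p53-/- livers and was called, as given above. Cdc25b, at 29.8, 98.4, 78.8 and 95.4 in p53-/- livers, spread over a smaller range and was not called (0.72 ± 0.29, adjusted p = 0.0977).

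Plk1 was at 67.1, 756, 755 and 455 in p53-/- livers, where replicate 1 was within the range of the Fah-/- livers and the others were above it. Aurka was at 156, 799.9, 901 and 657 in p53-/- livers and rose (1.67 ± 0.45, adjusted p = 0.0154). Aurkb, at 2.44, 50.1, 38.8 and 28.8 in p53-/- livers with 3 of 4 above background, was not called (1.39 ± 0.70, adjusted p = 0.191). Bub1b, at 18.7, 68.7, 55.7 and 42.4 in p53-/- livers, was not called (1.02 ± 0.49, adjusted p = 0.168). By role 3 of 7 genes of mitotic entry, 4 of 7 kinases and 3 of 7 kinetochore genes were called. Birc5 was at 242, 1675, 1516 and 1031 in p53-/- livers and rose (1.83 ± 0.52, adjusted p = 0.0212). Kif20a was at 53.6, 496, 476 and 261 in p53-/- livers and rose (2.20 ± 0.60, adjusted p = 0.0162). It was 1 of 4 kinesins called of 6.

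Ect2 was at 219, 273, 309.7 and 259 in p53-/- livers, against 155, 111, 82.5 and 112 in Fah-/- livers, and here replicate 1 stood clear of the Fah-/- arrays (1.23 ± 0.39, adjusted p = 0.0367). Nek2 (1.88 ± 0.44, adjusted p = 0.0066) and Kif2c, which depolymerises microtubules (1.86 ± 0.46, adjusted p = 0.00865), were the other two without overlap. Cdc20 was at 129, 1275, 1273 and 740.4 in p53-/- livers, with replicate 1 within the Fah-/- range. Pttg1 was at 938, 2220.0, 2317 and 1588 in p53-/- livers and was not called (0.44 ± 0.38, adjusted p = 0.485). Top2a was at 6.14, 80.8, 62.8 and 44.8 in p53-/- livers and was called (1.92 ± 0.65, adjusted p = 0.0491). With replicate 1 left out, 33 of 38 members were called and the median difference was 2.28. All 3 remaining p53-/- arrays then lay above all 4 Fah-/- arrays for 36 of 38 members, against 3 of 38 with all arrays. Replicate 1 was the lowest p53-/- array for all 38 members, so that leaving it out was bound to widen the gap. No share of all features is at hand for these counts. Without replicate 2 or replicate 3, Nek2 and Kif2c were the 2 members called. On the 1 slide that holds both groups, p53-/- females and Fah-/- males, both p53-/- arrays lay above both Fah-/- arrays for 36 of 38 members, against 28.6% of all features, with a median difference of 1.70. That slide holds p53-/- replicates 3 and 4 and not the low replicate 1. There 0 members were called by limma (2.64% of all features), and 21 had an unadjusted p under 0.05. With slide as a fixed block, 14 were called in a fit to all 28 arrays and 1, Kif2c, in a fit to the 12 arrays with no NTBC. With normexp background correction 9 were.

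Set against each other with no NTBC, p53-/- and p21-/- livers differed in 1 member. Pttg1 was lower in p53-/- than in p21-/- livers by a log2 difference of -1.17 ± 0.38 (adjusted p = 0.049), where 11.0% of all features were called (5.04% higher, 5.96% lower), and with dim probes kept limma called 0 of 39 members and 5.61% of features (2 members at an unadjusted p under 0.05). The other members were not called, which does not show equal levels: the difference of Cdc20 was -0.51 ± 0.61 and that of Mki67 -0.04 ± 0.67. The Pttg1 call was lost when p53-/- replicate 1 was left out, and Cdc25b was then called higher. With any single p21-/- array left out, 0 members were called. The same held without p53-/- replicate 2 and without the last p53-/- replicate. The p53-/- livers here were all female and the p21-/- livers of both sexes by sex transcripts, so that sex was not balanced between the groups.

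**Figure D4:**
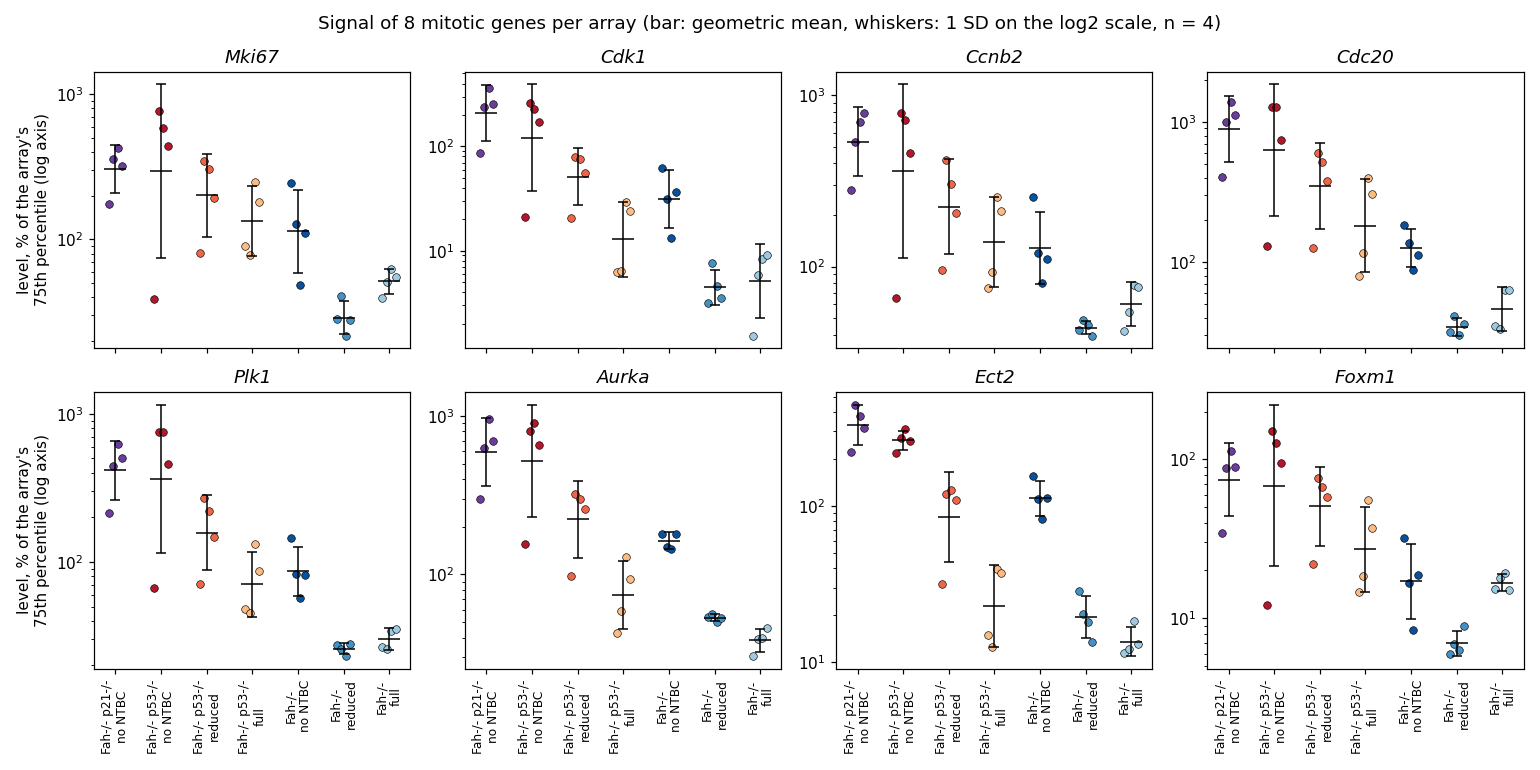
Level of 8 genes on each array, in percent of the array's 75th percentile on a log axis, by group, with the geometric mean and 1 SD of the log2 levels. Cdc20 lies between 127 and 604 in p53-/- livers on reduced NTBC and between 29.9 and 41.3 in Fah-/- livers on that dose, and replicate 1 is the lowest of the p53-/- livers with no NTBC in all 8 panels.

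On full NTBC few members passed between p53-/- and Fah-/- livers, and the p53-/- arrays were split. Cdc20 was at 78.9, 115, 397 and 306 in p53-/- livers, against 35.0, 33.1, 63.3 and 62.9 in Fah-/- livers (1.98 ± 0.61, adjusted p = 0.0331). Kif2c was the other call, at 3.69, 3.36, 20.4 and 4.21 in p53-/- livers, 2 of them above background, and at least 1.195-fold higher than in Fah-/- livers, none of which was (adjusted p = 0.0332). With dim probes kept, limma called 0 of 39 members (7.12% of all features), and 17 had an unadjusted p under 0.05. With the filter 2 of 38 were, where 13.9% of all features were called (6.34% higher, 7.59% lower), so the share of members lay below that of all features. Of the 38 differences 35 were positive, with a median of 1.10.

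Replicates 3 and 4 carried the higher levels. Mki67 was at 90.2, 78.1, 249.5 and 180.0 in p53-/- livers, against 39.4, 51.0, 62.7 and 55.2 in Fah-/- livers (1.38 ± 0.67, adjusted p = 0.183). Ccnb2 was at 74.4, 93.1, 256 and 211 in p53-/- livers, against 41.9, 54.0, 77.7 and 75.9 in Fah-/- livers (1.203 ± 0.60, adjusted p = 0.197). In both, replicates 3 and 4 were well above replicates 1 and 2. Cdk1 was at 6.20, 6.36, 29.0 and 24.0 in p53-/- livers, 3 of them above background, against 1.54, 5.84, 8.39 and 9.11 in Fah-/- livers, 2 of them above. Plk1 was at 48.1, 45.3, 132 and 86.5 in p53-/- livers, against 26.5, 25.8, 34.1 and 35.4 in Fah-/- livers. Aurka was at 42.8, 58.9, 129 and 93.8 in p53-/- livers, against 30.6, 39.3, 39.9 and 45.8 in Fah-/- livers. None of the 3 was called (adjusted p = 0.252, 0.151 and 0.171). Foxm1 was at 14.6, 18.5, 55.6 and 36.8 in p53-/- livers, against 15.2, 18.0, 19.2 and 15.03 in Fah-/- livers. Ect2 was at 15, 12.5, 39.9 and 37.1 in p53-/- livers, against 11.6, 12.2, 18.5 and 13.1 in Fah-/- livers. For both the groups overlapped and there was no call on these probes.

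Ccna2 was at 25.1, 31.0, 78.9 and 65.6 in p53-/- livers, against 12.2, 12.2, 19.1 and 19.6 in Fah-/- livers. Birc5 was at 179.8, 215, 569 and 476 in p53-/- livers, against 108, 142, 151 and 164 in Fah-/- livers. Kif20a was at 23.2, 23.8, 93.4 and 69.5 in p53-/- livers, against 13.7, 16.2, 21.9 and 21.1 in Fah-/- livers. These 3 did not overlap, and still missed the call (adjusted p = 0.125, 0.133 and 0.162). Ccnb1, above background on 2 p53-/- and 0 Fah-/- arrays, was at 2.20, 4.06, 23.4 and 16.0 in p53-/- livers (adjusted p = 0.0546). Top2a, above background on 4 p53-/- and 2 Fah-/- arrays, was at 9.47, 8.71, 21.4 and 16.9 in p53-/- livers, against 2.33, 4.13, 5.99 and 5.58 in Fah-/- livers (adjusted p = 0.098). Cdc25b, at 45.8, 40.2, 57.0 and 50.1 in p53-/- and 33.3, 34.0, 36.0 and 37.1 in Fah-/- livers, was not called. Pttg1 was at 427, 436, 734 and 710.1 in p53-/- livers, against 2236, 521, 1902 and 435 in Fah-/- livers, a group that fell into a high and a low pair of arrays (-0.83 ± 0.38, adjusted p = 0.157). For Aurkb and Bub1b no more than 2 p53-/- arrays and 1 Fah-/- array were above background, and neither was called.

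With no NTBC, against full NTBC, much of the module rose in both genotypes. The p53-/- livers with no NTBC were female and those on full NTBC male by sex transcripts. Dose and sex thus cannot be told apart in that genotype. In Fah-/- livers Ect2 was 8.27-fold higher with no than with full NTBC and Aurka 4.24-fold, and in p53-/- livers 11.5-fold and 7.02-fold. In Fah-/- livers 24 of 39 members with a probe were called higher and 1 lower with dim probes kept, beside 71.1% of all features called. With the filter 24 of 38 rose and 1 fell, where 70.9% of all features were called and 29.3% called higher. In p53-/- livers 31 of 38 rose and 1 fell, where 69.7% were called, 29.6% higher and 40.1% lower, and with dim probes kept 31 of 39 rose and 1 fell (68.2%). The share of Fah-/- members called in either direction, 25 of 38, was no higher than that of all features. The share called higher exceeded that of all features, whose median difference was -0.17 in Fah-/- and -0.14 in p53-/- livers at this scaling. The members' median was 1.52 in Fah-/- and 1.97 in p53-/- livers. Of the 19 members above background on every array 9 were called in Fah-/- and 16 in p53-/- livers, beside 72.3% of the features so measured in each.

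The checkpoint genes Bub1b and Mad2l1 and the spindle and cytokinesis genes Tpx2, Hmmr and Ect2 rose in both genotypes. Bub1b rose by 2.80 ± 0.49 (adjusted p = 1.93e-05) in Fah-/- and 2.74 ± 0.49 (adjusted p = 2.59e-05) in p53-/- livers. Mad2l1 rose by 2.09 ± 0.31 (adjusted p = 2.16e-06) in Fah-/- and 2.14 ± 0.31 (adjusted p = 1.53e-06) in p53-/- livers. Ect2 rose by 3.05 ± 0.39 (adjusted p = 2.7e-07) in Fah-/- and 3.52 ± 0.39 (adjusted p = 2.77e-08) in p53-/- livers, and its arrays did not overlap in either genotype. Aurka rose by 2.09 ± 0.45 (adjusted p = 0.000255) in Fah-/- and 2.81 ± 0.45 (adjusted p = 6.91e-06) in p53-/- livers, also without overlap. Cdk1, above background on 2 of 4 Fah-/- and 3 of 4 p53-/- arrays on full NTBC, rose by 2.61 ± 0.74 (adjusted p = 0.00325) and 3.24 ± 0.74 (adjusted p = 0.000464). Plk1 rose by 1.52 ± 0.56 (adjusted p = 0.0187) and 2.36 ± 0.56 (adjusted p = 0.000642), and Cdc20 by 1.43 ± 0.61 (adjusted p = 0.041) and 1.78 ± 0.61 (adjusted p = 0.0127). Among Fah-/- livers 21 of 38 members (55.3%) were called with no overlap between the doses, against 64.1% of all features. Among p53-/- livers 11 of 38 (28.9%) were, against 58.6% of all features, and replicate 1 with no NTBC lay low.

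Several members did not pass in Fah-/- livers. Mki67 differed by 1.14 ± 0.67 (adjusted p = 0.129) in Fah-/- and 1.15 ± 0.67 (adjusted p = 0.129) in p53-/- livers, with overlapping arrays in both, and Top2a by 1.10 ± 0.65 (adjusted p = 0.134) and 1.39 ± 0.65 (adjusted p = 0.061). Foxm1 differed by 0.03 ± 0.60 (adjusted p = 0.971) in Fah-/- livers and by 1.33 ± 0.60 (adjusted p = 0.0526) in p53-/- livers. Ccnb2 was called in p53-/- livers (1.38 ± 0.60, adjusted p = 0.0452) and not in Fah-/- livers (1.09 ± 0.60, adjusted p = 0.109). Birc5 was likewise called in p53-/- livers (1.48 ± 0.52, adjusted p = 0.0146) and not in Fah-/- livers (0.84 ± 0.52, adjusted p = 0.151). Whether the response differed between the genotypes was tested as such for each member. Nek2 passed, with a response larger by 2.37 ± 0.62 (limma, adjusted p = 0.0184) in p53-/- livers. None of the other members did on the probe that stood for it, where 9.11% of all features passed, 4.86% with a positive difference. Only the p53-/- livers with no NTBC were female in this test, so that genotype and sex cannot be told apart in it. Nek2 was at 30.5, 126, 125 and 88.3 with no and 6.05, 5.99, 18.8 and 15.3 with full NTBC in p53-/- livers, against 21.2, 21.8, 24.2 and 20.9 with no and 11.7, 14.4, 17.5 and 13.9 with full NTBC in Fah-/- livers. Without Fah-/- replicate 1 with no NTBC, 11 members were called for that genotype. Without p53-/- replicate 1 with no NTBC, the lowest array of its group for every member, all 38 were called for p53-/- livers. With normexp background correction 5 were called in Fah-/- and 16 in p53-/- livers, and 7 differences in each genotype, of dim genes such as Aurkb, Ndc80, Kif11 and Anln, turned below 0.

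Reduced against full NTBC changed fewer members. In p53-/- livers 11 of 38 members were called higher with the reduced dose and 0 lower (39.8% of all features called, 20.3% higher), and with dim probes kept 12 of 39 (38.6%). They included Ect2 (1.89 ± 0.39, adjusted p = 0.000504), Aurka (1.59 ± 0.45, adjusted p = 0.00716), Cdk1 (1.99 ± 0.74, adjusted p = 0.0353), and Mad2l1 (1.45 ± 0.31, adjusted p = 0.000688) and Nek2 (1.60 ± 0.44, adjusted p = 0.00584), which turned to -0.17 and -0.02 with normexp background correction. Of the 38 members 3 (7.89%) were called with no overlap between the groups, against 32.8% of all features. Among Fah-/- livers 2 of 38 rose, Mad2l1 (0.90 ± 0.31, adjusted p = 0.0228) and Kif2c (1.21 ± 0.46, adjusted p = 0.0389), and 1 fell, Bub1, where 39.8% of all features were called. With dim probes kept 1 rose and 1 fell (24.7%). In either direction both shares lay below those of all features, while 11 of 38 called higher in p53-/- livers exceeded the 20.3%. With normexp background correction the p53-/- count was 4 higher and 6 lower. Tested directly, the difference between the responses was positive for 37 of 38 members, with a median of 1.27, and passed limma's test for 0 (10.4% of all features passed, 6.74% with a positive difference), with 10 at an unadjusted p under 0.05.

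With no against reduced NTBC, 27 of 38 members were higher and 1 lower in Fah-/- livers, where 64.3% of all features were called and 26.1% called higher. In p53-/- livers 13 were higher and 1 lower (61.3%, and 23.2% higher). The p53-/- livers with no NTBC were female and those on reduced NTBC male, so that dose and sex cannot be told apart there. With dim probes kept the counts were 27 higher of 39 and 10 higher of 39, with Bub1 lower in each (65.2% and 49.5%). In Fah-/- livers Ccnb2 was higher by 1.55 ± 0.60 (adjusted p = 0.0276), Cdc20 by 1.86 ± 0.61 (adjusted p = 0.0111) and Mki67 by 1.97 ± 0.67 (adjusted p = 0.0131). In p53-/- livers these differed by 0.69 ± 0.60 (adjusted p = 0.327), 0.84 ± 0.61 (adjusted p = 0.241) and 0.55 ± 0.67 (adjusted p = 0.486) and were not called. Among the comparisons of genotype or dose Cdc25b was called in these alone, by 0.77 ± 0.29 (adjusted p = 0.024) in Fah-/- and 0.78 ± 0.29 (adjusted p = 0.0237) in p53-/- livers, with overlapping arrays. Without p53-/- replicate 1 with no NTBC, the lowest array of its group for every member, 36 of 38 were called in that genotype. Without its replicate 1 on reduced NTBC 3 were.

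Bub1, a spindle checkpoint kinase, went against the rest on the probe that stood for it. Its brighter probe was at 45.6, 52.96, 58.8 and 55.3 in p21-/- livers, 44.7, 59.1, 66.2 and 59.2 in p53-/- livers and 56.2, 65.3, 59.5 and 58.1 in Fah-/- livers with no NTBC. With full NTBC it was at 111, 117, 111 and 97.2 in p53-/- livers and between 97.8 and 114 in Fah-/- livers. All arrays with no NTBC thus lay below those with full NTBC, and with no against full NTBC Bub1 fell, with differences of -0.85 ± 0.15 (adjusted p = 2.35e-05) in Fah-/- and -0.94 ± 0.15 (adjusted p = 6.49e-06) in p53-/- livers. The dimmer Bub1 probe, matched to another transcript accession, ran with most of the members. It was at 4.74, 19.9, 15.1 and 7.87 in p53-/- livers on reduced NTBC, against 1.01, 1.79, 0.986 and 1.08 in Fah-/- livers, and at 20.3, 38.5, 63.4 and 47.9 in p21-/- livers with no NTBC, against 18.2, 8.05, 2.05 and 6.94 in Fah-/- livers. On that probe p53 loss on reduced NTBC gave 3.13 ± 0.74 (p adjusted over all probes 0.00604), p21 loss 2.54 (adjusted p = 0.0388), and no against full NTBC 1.497 (adjusted p = 0.0742) in Fah-/- and 2.20 (adjusted p = 0.0108) in p53-/- livers. What each probe measures was not tested, and the direction for Bub1 turns with the probe.

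**Figure D5:**
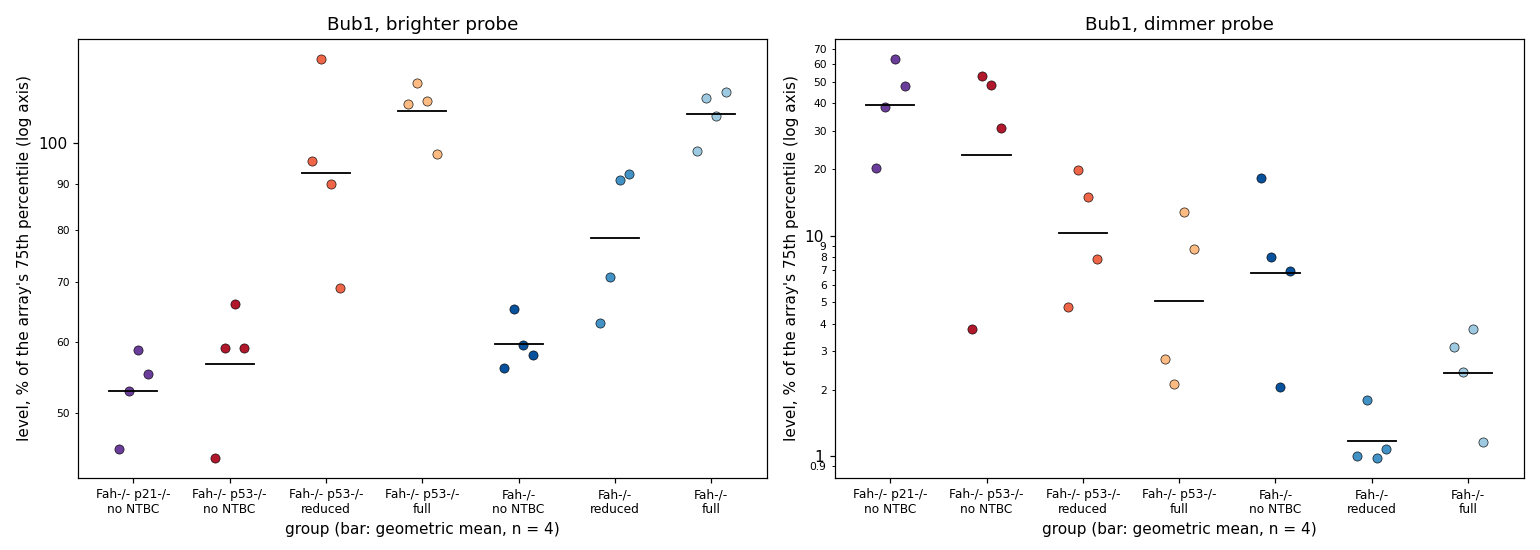
Level of the brighter and the dimmer Bub1 probe on each array, in percent of the array's 75th percentile on a log axis, by group. The brighter probe lies between 44.7 and 66.2 in p53-/- livers with no NTBC and between 97.2 and 117 in those on full NTBC, and the dimmer probe runs the other way.

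Of the 38 members 12 had a further probe that passed, 13 probes in all. With p53 loss on reduced NTBC 10 of the 13 gave the same call as the probe that stood for the gene, and 3 members not called above were called higher by their further probe: Bub1, Kif23 (2.41 ± 0.72, p adjusted over all probes 0.0255) and Racgap1 (2.81 ± 0.71, adjusted p = 0.00919). With p21 loss 10 of the 13 gave the same call, Bub1 and Racgap1 (2.65 ± 0.71, adjusted p = 0.0249) were called by the further probe alone, and Top2a was not called by its own (adjusted p = 0.0901). With p53 loss and no NTBC Racgap1 was called by its further probe (2.47 ± 0.71, adjusted p = 0.0221), while Cenpe, Top2a and 1 of the further Ccnb1 probes were not. The calls for Racgap1, Kif23 and Top2a thus turn on the probe.

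On full NTBC the further probes of Ect2 (1.65 ± 0.31, adjusted p = 0.000773) and Hmmr (2.35 ± 0.59, adjusted p = 0.00858) were called higher with p53 loss, where the probes that stood for them were not. The further Racgap1 probe passed both tests of a difference in response between the genotypes, with 3.63 ± 0.999 (adjusted p = 0.0218) for the reduced dose and 3.29 ± 0.999 (adjusted p = 0.0396) for no NTBC. In the test for no NTBC genotype and sex cannot be told apart. For no against full NTBC 11 of the 13 further probes gave the same call in Fah-/- and 9 in p53-/- livers, and for no against reduced NTBC 5 did in Fah-/- livers. Anln, not called on its brighter probe for that comparison, fell there on its further probe (-1.54 ± 0.45, adjusted p = 0.00511), and on that probe it rose with reduced against full NTBC in Fah-/- livers (1.58 ± 0.45, adjusted p = 0.00819).

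Cenpa was called in none of the 13 comparisons. Ttk, whose probe did not pass, was above background on 3 of 4 arrays in p21-/- and in p53-/- livers with no NTBC and in p53-/- livers on reduced NTBC, and on none elsewhere. Its group means were 7.47, 5.33 and 3.79 in those 3 groups and 1.12 in p53-/- livers on full NTBC, against 1.09, 0.944 and 0.970 in Fah-/- livers with no, reduced and full NTBC.

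Genes of mitosis that are not members were counted in the same comparisons. Of 54 tested, 32 rose and 0 fell with p53 loss on reduced NTBC, and 34 and 0 with p21 loss. With p53 loss and no NTBC 20 rose and 1 fell, and on full NTBC 3 rose and 2 fell. Of all features, 9.84% were called higher and 5.80% lower with p53 loss on reduced NTBC, and 3.94% and 3.59% with p21 loss. With p53 loss these shares were 7.65% and 6.60% with no NTBC and 6.34% and 7.59% on full NTBC. On full NTBC the share of these genes called thus lay below the 13.9% of all features. Cenpi, a centromere protein, rose by 3.11 ± 0.40 (adjusted p = 2.18e-05) with p53 loss on reduced NTBC, and Espl1, the separase that cleaves cohesin, by 2.86 ± 0.51 (adjusted p = 0.000608). With p21 loss Cenpi rose by 1.96 ± 0.40 (adjusted p = 0.00454) and the condensin subunit Smc4 by 1.07 ± 0.20 (adjusted p = 0.00233). Of 46 S phase genes 20 rose and 1 fell with p53 loss on reduced NTBC, 15 and 0 with p21 loss, and 19 and 0 with p53 loss with no NTBC. Rrm1, a subunit of ribonucleotide reductase, rose by 1.15 ± 0.22 (adjusted p = 0.00111) on reduced NTBC and the helicase subunit Mcm2 by 1.34 ± 0.27 (adjusted p = 0.00169), and Mcm10 fell by 1.14 ± 0.22 (adjusted p = 0.001). Prim2, a primase subunit, rose by 4.88 ± 0.18 (adjusted p = 6.47e-15) with p21 loss. That is far above the median difference of 0.63 for the S phase genes, and what sets Prim2 apart was not tested. Of 19 genes of DREAM and the E2F family, 5 rose on reduced NTBC with p53 loss, 3 with p21 loss and 3 with p53 loss with no NTBC, with 0 falling in each. In either direction, the 3 of 19 for p53 loss with no NTBC is a share near the 14.2% of all features called. Mybl2, which takes over from DREAM repressors on G2/M promoters, rose with no NTBC by 1.86 ± 0.15 (adjusted p = 4.29e-08) with p53 loss and by 1.22 ± 0.15 (adjusted p = 3.07e-05) with p21 loss.

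Of 22 brakes and G2 regulators 7 rose and 4 fell with p53 loss on reduced NTBC, where 15.6% of all features were called. Cdkn2c, an inhibitor of CDK4 and CDK6, rose by 1.54 ± 0.16 (adjusted p = 1.16e-06), and the p53 target Ccng1 fell by 1.53 ± 0.20 (adjusted p = 2.49e-05). With p53 loss and no NTBC 5 of the 22 rose and 2 fell, where 14.2% of all features were called. With p21 loss 2 rose and 0 fell, where 7.53% were called. With no NTBC Ccng1 fell in p53-/- livers, with a difference of -1.55 ± 0.20 (adjusted p = 2.73e-05), as did Plk2, another p53 target (-1.37 ± 0.25, adjusted p = 0.000911). Cdkn1a itself rose with no against full NTBC, by 5.68 ± 0.43 (adjusted p = 5.16e-11) in Fah-/- and 6.23 ± 0.43 (adjusted p = 9.88e-12) in p53-/- livers, beside the rise of the members.

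Markers of other liver cells were read beside these results. On reduced NTBC, limma called 0 of 10 macrophage markers (0 at an unadjusted p under 0.05) between p53-/- and Fah-/- livers, and their mean log2 level ranged from 0.96 to 1.74 in p53-/- and from 0.64 to 1.31 in Fah-/- livers. Of 8 T and NK cell markers 2 rose there, with mean levels of -3.29 to -2.14 in p53-/- and -3.64 to -3.13 in Fah-/- livers. The fit called 0 of 5 B cell, 0 of 4 neutrophil, 0 of 7 cholangiocyte and 0 of 9 stellate markers (0, 1, 0 and 2 at an unadjusted p under 0.05), and 1 of 9 hepatocyte, 1 of 9 endothelial and 1 of 5 erythroid markers fell. With p21 loss, 1 of 10 macrophage markers rose and 0 of 9 hepatocyte markers were called. In that comparison 3 of 5 B cell, 1 of 8 T and NK cell, 1 of 7 cholangiocyte and 1 of 9 endothelial markers fell. With p53 loss and no NTBC 3 of 5 B cell and 4 of 9 endothelial markers fell. So did 1 of 9 hepatocyte, 1 of 8 T and NK cell and 1 of 5 erythroid markers, while 1 of 10 macrophage and 1 of 9 stellate markers rose. With no against full NTBC all 9 hepatocyte markers fell in both genotypes, by a median of 1.96 in Fah-/- and 2.31 in p53-/- livers on the log2 scale, and 9 of 10 macrophage markers rose in Fah-/- and 8 of 10 in p53-/- livers. In that comparison 4 of 7 cholangiocyte markers rose in each genotype, and of 5 erythroid markers 4 fell and 1 rose in each. Of 8 T and NK cell markers 5 fell in p53-/- livers, and 2 fell and 1 rose in Fah-/- livers. Of 5 B cell markers 4 fell in p53-/- and 2 in Fah-/- livers. The 9 endothelial markers were split, with 4 higher and 2 lower in Fah-/- livers and 1 higher and 4 lower in p53-/- livers. With no against reduced NTBC 9 of 10 macrophage, 6 of 7 cholangiocyte and 6 of 9 stellate markers rose in Fah-/- livers, and 7 of 10, 5 of 7 and 5 of 9 in p53-/- livers. Of 9 hepatocyte markers 8 fell in each genotype, and 1 rose in Fah-/- livers. The shares of all features called in each comparison are those given with the members. The part of these cells in the members' changes was not tested.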

How the data were processed

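Livers were profiled on 28 one-colour Agilent arrays, 4 a group. The authors deposited scanner files with processed signal intensity, median spot intensity and 0 or 1 flags for each spot, made with Agilent's Feature Extraction software, whose version is 10.7.3.1 per the file headers and 10.5 in the submitters' processing notes, and a table of values on the log2 scale whose deposited values are alike in distribution on every array (medians 6.89 to 6.912). Here the log2 processed intensity, minus each array's log2 75th percentile, was used. The 1639 control spots were left out and spots of a probe averaged, giving 41174 probes. Probes were kept if all 4 arrays of any group were well above background (27508 passed and 13666 did not). A probe was named by its accession in RefSeq's list of genes (28462 probes named and 12712 not), with the brightest probe taken for each of 5450 features with several. limma 3.58.1 in R 4.3.3 fitted the 7 groups with 21 residual degrees of freedom, tested 13 comparisons and adjusted p over 20302 features by Benjamini-Hochberg with a threshold of 0.05. The fit was tested on simulated data. Tables were handled with R's data.table (version 1.17.8), numpy 2.4.6 and pandas 2.3.3, and plots drawn with matplotlib 3.10.9 in Python 3.11.15.

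The members and gene lists were chosen with earlier results of these data known. All 40 members are named. Values on every array are given for 16 of them, set by role, and for any member with the opposite pattern, and up to 4 called genes of each further list and comparison were open to naming, those with the smallest p. Precision is limited by the 4 arrays of a group, and below background a level is a bound. The replicate numbers did not pair the samples: in 0 of 21 pairs of groups did every correlation exceed 0.1. Alternatives were the deposited table, quantile normalization, normexp with an offset of 50 (on the median spot intensity, in place of the mean, which the files used here do not hold), other filters, the mean of a gene's probes, fits to the compared groups alone, a trended robust fit, slide and replicate blocks, arrays of 1 sex, and leaving out each array. Fixed slide blocks over 28 arrays, comparisons within a slide and the dimmer Bub1 probe were added after seeing the data.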

Additional observations from a re-analysis of the deposited data

Results flagged for a closer look

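In each group of 4 arrays every member was searched for an array that stood apart, by Dixon's criterion for 4 values, the gap to the nearest array over the group's range. Of 266 gene and group pairs 18 had one, and chance gives about 1 in 20. Levels are percents of the array's 75th percentile, with the nearest array of the group in parentheses.

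Replicate 1 of p53-/- livers with no NTBC was low for 6 genes: Ccna2 at 16.9 (208), Cdk1 at 21.2 (173), Cenpf at 6.63 (89.3), Nusap1 at 10.3 (118), Hmmr at 26.3 (177) and Ube2c at 43.6 (407). Replicate 1 of p53-/- livers on reduced NTBC was low for 4 genes: Mad2l1 at 22.1 (37), Ect2 at 31.6 (110), Anln at 2.94 (5.54) and Racgap1 at 0.758 (8.9). Replicate 1 of p21-/- livers was low for Nek2 at 51.2 (113) and Cenpf at 35.8 (90.3), and replicate 2 of that group was high for Pttg1 at 4340 (3580). Replicate 3 of p53-/- livers on full NTBC was high for Kif2c at 20.4 (4.21). In Fah-/- livers on reduced NTBC, replicate 4 was low for Nek2 at 11.7 (14.7) and high for Kif2c at 7.83 (4.25), and replicate 2 was high for Birc5 at 168 (100). In Fah-/- livers on full NTBC, replicate 3 was high for Ccnb1 at 2.05 (1.17), a gene below background there.

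The response of Nek2 to no against full NTBC was larger in p53-/- than in Fah-/- livers by a log2 difference of 2.368 ± 0.625 (limma, adjusted p = 0.0184), the 1 member of 38 to pass that test of the difference on the probe that stood for it (the further Racgap1 probe passed too). Only the p53-/- livers with no NTBC were female there, so that genotype and sex cannot be told apart.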

How the results depend on the processing

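Counts are of members called by limma, 38 being tested with the filter, and the cause of a change was not tested except where the setting tests fewer genes or arrays. For p53 loss on reduced NTBC 28 were called, 8 with normexp background correction, 18 in the deposited table and 13 when probes had to be above background on all 28 arrays. For p21 loss 26 were called, 16 with normexp, 16 in a fit to the groups compared alone, 17 with males only, 14 with the stricter filter, 8 within 1 slide and 2 with slide as a fixed block over 12 arrays. For p53 loss with no NTBC 19 were called, 9 with normexp, 3 in a fit to both groups alone, 11 with the stricter filter, 1 with the slide block over 12 arrays and 0 within 1 slide. For p53 loss on full NTBC 2 were called, 0 with the deposited table, normexp or no filter, 1 with the stricter filter, 4 with the mean of probes, 5 with a replicate block and 8 in a fit to both groups alone. The 1 call between p53-/- and p21-/- livers was lost, leaving 0, with normexp, no filter, a fit to both groups alone, females only, within 1 slide and with a replicate block or any slide block.

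For no against full NTBC, 25 members were called in Fah-/- livers, 5 with normexp, 13 in the deposited table and 9 with the stricter filter, and 32 in p53-/- livers, 16 with normexp and 16 with the stricter filter. For reduced against full NTBC in Fah-/- livers 3 were called, 0 with normexp, and the balance turned with 1 lower in the deposited table, 1 lower with the stricter filter and 12 (5 higher, 7 lower) in a fit to both groups alone. In p53-/- livers 11 were called, 7 in the deposited table, 5 with the stricter filter and 10 with normexp (4 higher, 6 lower, reversed). For no against reduced NTBC 28 were called in Fah-/- livers, 9 with normexp and 14 with the stricter filter, and 14 in p53-/- livers, 6 with normexp, 7 with the stricter filter and 5 in a fit to both groups alone. Between genotypes, the response to the reduced dose differed for 0, but for 3 (Ndc80, Nek2 and Tpx2) with a replicate block and 3 in a fit to the groups alone. The response to no NTBC differed for 1, 2 with a replicate block and 0 with normexp.

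Leaving out 1 array at a time gave 25 to 31 calls for p53 loss on reduced, 2 to 33 with no and 0 to 4 with full NTBC, 15 to 28 for p21 loss and 0 to 1 between p53-/- and p21-/- livers. It gave 11 to 28 (Fah-/-) and 22 to 38 (p53-/-) for no against full, 0 to 3 and 6 to 16 for reduced against full, 19 to 30 and 3 to 36 for no against reduced NTBC, and 0 to 4 and 1 to 5 for the differences in response to reduced and no NTBC. Of the 28 calls for p53 loss on reduced NTBC, Plk1, Aurka, Cenpe, Birc5, Kif20a, Ect2, Cdc20 and Mki67 held under every alternative run, 8 in all, and of the 26 for p21 loss 0 did. These counts do not compare the robustness of the 2 results, since the alternatives differed. Fixed slide blocks, a fit within 1 slide and a fit to males were run for p21 loss only. On reduced NTBC each genotype filled its own slide, so that slide could not be set apart from p53 loss. Replicate numbers paired nothing (correlations -0.227 to 0.356, 11 of 28 arrays closest to their own number), and the replicate block moved the other counts by less than 1.5 times.

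Bub1 turned with its dimmer probe to 1.497 and 2.202 (no against full NTBC, Fah-/- and p53-/-) and to 2.522 and 1.181 (no against reduced), and with the mean of its probes to 0.323, 0.632, 1.065 and 0.237. With normexp these called genes turned: for no against full NTBC in Fah-/- livers Kif23 (-0.096), Aurkb (-0.245), Ccnb1 (-0.318), Ndc80 (-0.38), Kif11 (-0.399), Kif2c (-0.468) and Anln (-0.657), in p53-/- livers Kif2c (-0.071), Racgap1 (-0.184), Aurkb (-0.199), Ndc80 (-0.214), Kif11 (-0.349), Anln (-0.568) and Cdc25c (-0.632), for no against reduced in Fah-/- livers Kif11 (-0.031) and Ndc80 (-0.043), for reduced against full in Fah-/- livers Kif2c (-0.181) and in p53-/- livers Nek2 (-0.023), Mad2l1 (-0.173), Bub1b (-0.457), Ndc80 (-0.817), Anln (-1.07) and Cdc25c (-1.091).

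The median of all features moved with the processing. That for no against full NTBC in Fah-/- livers was -0.396 with normexp and 0.008 with quantile normalization, against -0.167 as reported, and for reduced against full NTBC in p53-/- livers -0.344 with normexp, against 0.025. With normexp the share of all called features that were higher was 31.0% in Fah-/- and 32.3% in p53-/- livers for no against full NTBC (41.4% and 42.5% as reported), 24.7% for reduced against full in p53-/- livers (50.9%), 22.3% for p53 loss on full (45.5%), 51.4% for p53 loss on reduced NTBC (62.9%) and 75.6% for the difference in response to the reduced dose (64.9%). In the deposited table it was 48.6% for no against reduced NTBC in p53-/- livers (37.8%).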
